A study of Mus musculus with 8 samples.

Results

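Among the accessible chromatin regions of synchronized mouse spermatogonia, 3530 regions had a peak in both libraries at 0, 18 and 48 h after retinoic acid (RA) and lacked a peak in at least 1 of the 2 libraries at 120 h. They were selected by these peak calls, out of 87144 regions obtained by merging the peaks of all 8 libraries wherever they overlapped by at least 1 bp. The regions called at 0, 18 and 48 h numbered 19066, so 18.5% of them were not called at 120 h and 15536 were called at all 4 timepoints. The selection used the presence of peaks in all 8 libraries, so the counts at 120 h are given as a description, without a test.

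The name "lost by 120 h" fits only a minority of these regions. Of the 3530, 2917 (82.6%, 95% Wilson interval 81.3% to 83.8%) still had a peak in 120 h replicate 1, 69 (1.95%) had a peak in 120 h replicate 2 alone, and 544 (15.4%, interval 14.3% to 16.6%) had no peak in either. These 544 regions were 2.85% of the regions called at 0, 18 and 48 h. The intervals cover counting error over regions only, and 120 h replicate 1 held 39551 peaks against 24643 in 120 h replicate 2. With 120 h replicate 1 alone standing for 120 h, 613 regions were not called, and with 120 h replicate 2 alone 3461. The regions are therefore called here regions not called at 120 h, and the 544 are given separately.

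Mice that carry a PIWIL2-eGFP transgene, which labels germ cells, were fed WIN 18,446, an inhibitor of RA synthesis, at 100 mg/kg daily for 7 days. The 0 h group was collected before RA, and the 18, 48 and 120 h groups were collected at those times after 200 µg RA was injected into 9 dpp pups. Sorted eGFP-positive testis cells of a single mouse made each library, with 2 libraries per timepoint, and all 8 share the transgene and the WIN treatment. The strain background is given as C57BL/6 x 129s4/SvJae in the sample labels and otherwise in the methods. The samples of later timepoints are also older mice, so time after RA and age cannot be told apart.

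RA triggers undifferentiated spermatogonia to enter differentiation, after which type A spermatogonia divide, become type B spermatogonia and enter meiosis. ATAC-seq marks open chromatin through a transposase that inserts adapters into DNA not wrapped in nucleosomes. Promoters with CpG islands are open in most cell types, whereas enhancers, which lie in introns or between genes, are opened by transcription factors and tend to be specific to a cell type or stage. DMRT1, SP/KLF factors and NFY, which binds the letters CCAAT, are DNA-binding factors active in spermatogonia.

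The sequences around the summits of the regions that were highest at 48 h and had no peak in either 120 h library are shown because these are the clearest cases of a peak present at 48 h and absent in both libraries at 120 h. Each runs 5′ to 3′ on the plus strand of GRCm38 (mm10, RefSeq sequence), and capitals mark the letters of any of the 20 searched motifs on either strand. UTR bases were left out.

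Dbp intron, chr7:45709189-45709339: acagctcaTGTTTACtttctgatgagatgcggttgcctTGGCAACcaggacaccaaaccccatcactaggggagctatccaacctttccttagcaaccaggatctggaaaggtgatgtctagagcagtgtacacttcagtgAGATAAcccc
H2afj and Wbp11, chr6:136816741-136816891: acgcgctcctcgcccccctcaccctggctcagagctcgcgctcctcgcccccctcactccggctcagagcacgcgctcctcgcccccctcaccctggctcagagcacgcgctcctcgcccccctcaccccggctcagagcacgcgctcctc
Prr12, chr7:45051045-45051195: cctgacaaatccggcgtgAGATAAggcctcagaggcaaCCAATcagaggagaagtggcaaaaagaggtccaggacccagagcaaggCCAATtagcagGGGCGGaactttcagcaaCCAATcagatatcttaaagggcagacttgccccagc
Hist1h2ae, chr13:23571221-23571355: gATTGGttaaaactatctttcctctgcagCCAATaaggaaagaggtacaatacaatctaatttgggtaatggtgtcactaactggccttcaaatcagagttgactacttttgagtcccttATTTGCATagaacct
Ptma, chr1:86531973-86532123: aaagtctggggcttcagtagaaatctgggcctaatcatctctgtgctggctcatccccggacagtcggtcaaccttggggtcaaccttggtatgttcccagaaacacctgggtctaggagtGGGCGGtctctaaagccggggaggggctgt
No assigned gene, chr19:37362661-37362811: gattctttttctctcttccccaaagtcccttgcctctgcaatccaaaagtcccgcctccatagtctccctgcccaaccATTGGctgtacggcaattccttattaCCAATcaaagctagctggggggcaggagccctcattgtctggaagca

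In these windows CCAAT or its reverse complement ATTGG occurred 3 times at Prr12, 2 times at Hist1h2ae and 2 times in the chromosome 19 region. The SP/KLF letters GGGCGG occurred 1 time each at Prr12 and Ptma, and the octamer ATGCAAAT, read on the other strand, 1 time at Hist1h2ae. The Dbp window held the FOX letters TGTTTAC, the RFX letters GTTGCCA and the GATA letters AGATAA, on either strand and each 1 time. The H2afj window is a run of near-identical GC-rich units, in which none of the motifs was found.

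Peak height is the deposited signal at the peak summit, which counts the overlapping sequenced tags once all libraries had been cut by the authors to an equal number of tags. The Dbp region, chr7:45709055-45709514, had 359 and 714 before RA, 240 and 245 at 18 h, then 167 and 222 by 48 h. Its summit lies in an intron of Dbp, a circadian PAR-bZIP transcription factor, 4001 bp from the start. The H2afj region, chr6:136816553-136817134, had values of 93 and 125 before RA, 144 and 59 at 18 h, then 157 and 176 by 48 h. It was the only one of the 6 in which both 48 h values were above both 0 h values. The region lies downstream of H2afj, a gene for an H2A histone variant, 8552 bp from its start. Wbp11 is assigned to it as well, and its summit lies in an intron. The Prr12 region, chr7:45050922-45051333, lies 1777 bp inside the gene and had values of 367 and 412 before RA, 126 and 219 at 18 h, then 109 and 139 by 48 h.

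The Hist1h2ae region, chr13:23570972-23571625, lies 44 bp before Hist1h2ae, a replication-dependent H2A gene of the main histone cluster. Its values were 437 and 288 before RA, 124 and 191 at 18 h, then 106 and 119 by 48 h. Peaks of 120 h replicate 1 and 120 h replicate 2 ended only 100 bp and 162 bp from it, so the locus itself was still open at 120 h beside the region. The Ptma region, chr1:86531695-86532770, lies past the end of the gene for prothymosin alpha, and had values of 251 and 256 before RA, 76 and 111 at 18 h, then 96 and 102 by 48 h. The chromosome 19 region, chr19:37362320-37363184, has no assigned gene and had values of 331 and 282 before RA, 91 and 111 at 18 h, then 88 and 89 by 48 h. In 5 of the 6 regions both 0 h values lay above all later values, and in none of the 6 was the nearest 120 h peak of either library further away than 12839 bp.

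**Figure D1:**
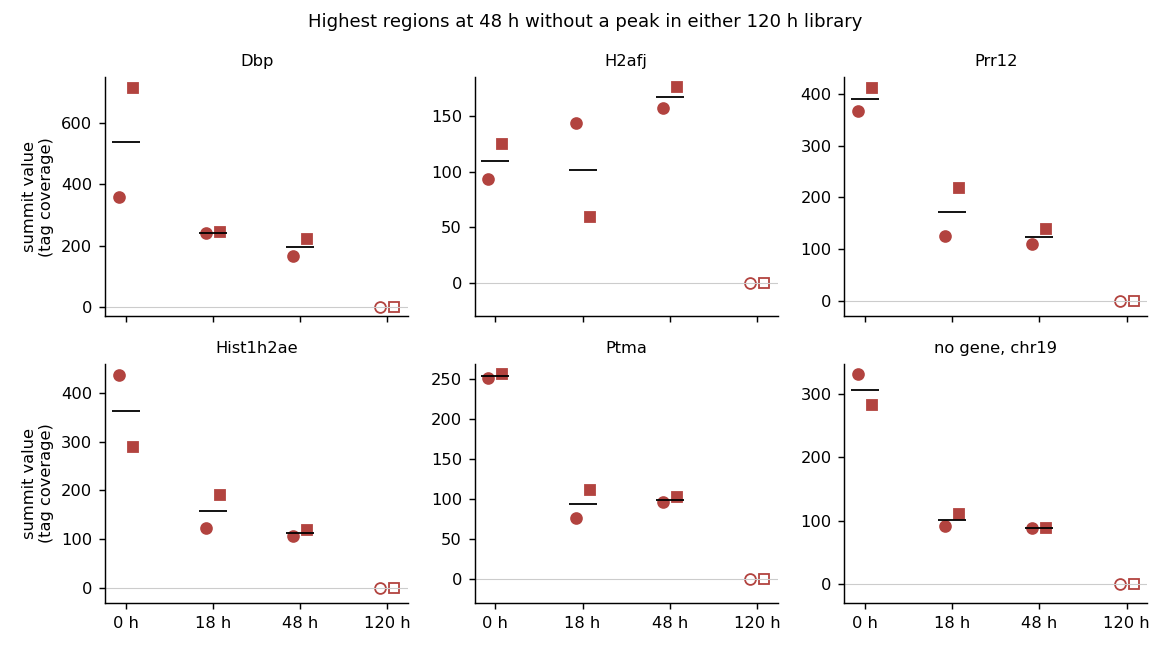
Summit value (tag coverage, linear axis) in each library at 0, 18, 48 and 120 h for the 6 regions without a 120 h peak that were highest at 48 h. Circles are replicate 1, squares replicate 2 and bars the mean of both. Open symbols at 0 stand for no peak called, where the value is not known. Both 48 h values were between 88 and 222 in all 6 regions.

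Over all 3530 regions the median summit value was 142 and 156 in the 0 h libraries, 57 and 65 in those of 18 h, then 48 and 60 in those of 48 h. The 15536 regions called at every timepoint had medians of 224 and 270, 91 and 116, and 86 and 102 in the same libraries. The lowest summit value of any peak was 24 or 25, depending on the library, so the regions not called at 120 h lay closer to the lowest called values in every early library. Among them, the 544 without any 120 h peak were lower still, with medians of 115 and 130 before RA, 48.5 and 56 at 18 h, then 41 and 50 by 48 h. Where a library has no peak its height is unknown, and absence of a peak means only that the signal did not pass the peak caller's cutoff.

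The 2917 regions with a peak in 120 h replicate 1 had a median value of 61 there, with a range from 26 to 310. Their value in that library was above both 48 h values in 1280 regions (43.9%), below both in 608 (20.8%) and between them or equal to 1 of them in 1029. For most of these regions the 120 h replicate 1 peak was thus no lower than at 48 h. In the regions called at all timepoints the same library was above both 48 h values in 88.2%, and the median log2 ratio of 120 h replicate 1 to the geometric mean of the 48 h libraries was 0.87, against 0.13 in the 2917 regions. These values describe how the regions were selected and are not tested.

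**Figure D2:**
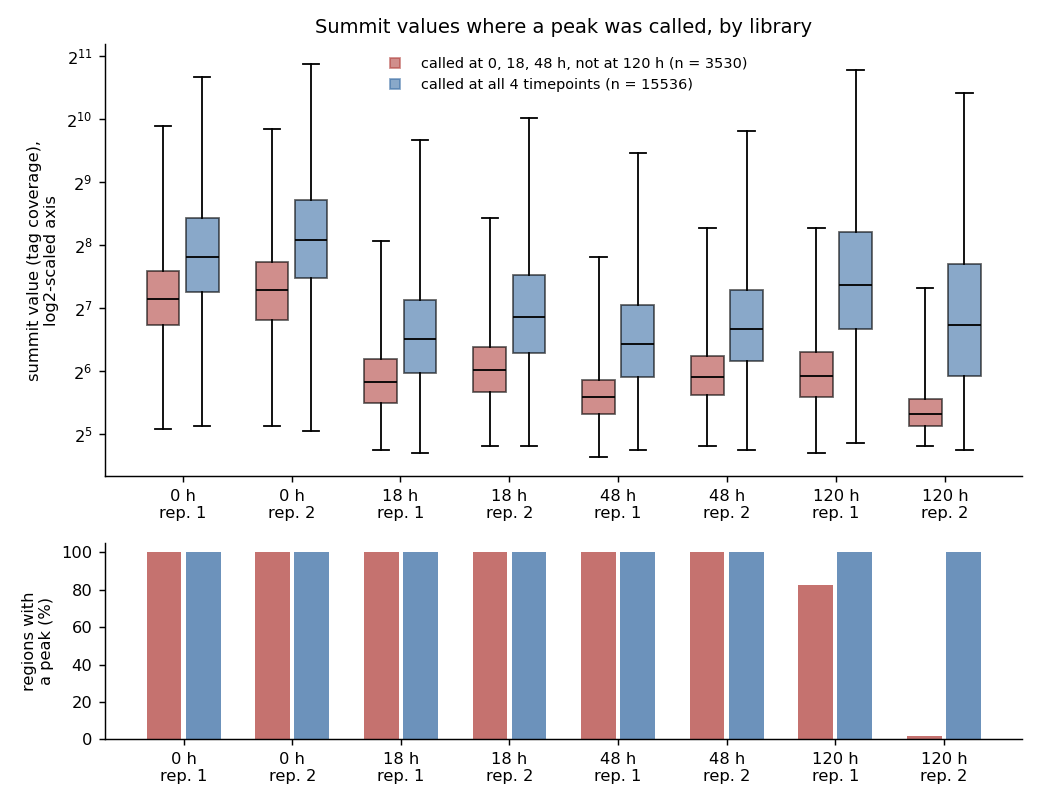
Upper panel, summit values of called peaks by library on a log2-scaled axis for regions not called at 120 h (red) and regions called at all 4 timepoints (blue), with the median, quartiles and full range. Lower panel, the percentage of regions with a peak in each library. The red set holds a peak in 82.6% of regions in 120 h replicate 1 and in 1.95% in 120 h replicate 2.

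The border of the selection was described by 3 regions on each side. Just inside, the region at the start of Peg3, an imprinted zinc finger gene, chr7:6730285-6730664, had 142 and 180 at 48 h, and 310 in 120 h replicate 1 and no peak in 120 h replicate 2, whose nearest peak lay 533 bp away. The region in Srf, the serum response factor gene, had 168 and 254 at 48 h and 294 in 120 h replicate 1, and the region in Mast3, a kinase gene, had 151 and 232 at 48 h and 250 in 120 h replicate 1. Just outside, regions at Agpat4 and Grem1 and an unassigned region of chromosome 7 were called at all timepoints with 27 in 120 h replicate 2, and with 56, 40 and 36 in replicate 1. The first were picked for a high value in replicate 1 and the second for a low value in replicate 2, so the values are not compared.

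Regions missing from a single timepoint were also found for the others. At 48 h, 1188 regions were not called although both libraries of the other timepoints had a peak, and 839 of them had a peak in 48 h replicate 2 alone, with 162 (13.6%) in neither. At 18 h the numbers were 1247, 862 and 213 (17.1%). At 0 h they were 139, of which 55 (39.6%) had no peak in either library. At 18, 48 and 120 h the library with fewer peaks was the one that lacked most of the regions: 25941 against 33982 peaks at 48 h and 28889 against 34423 at 18 h. With the same number of highest peaks taken from each library, 2164 regions met the rule at 120 h and 774 (35.8%) of them had no peak in either library.

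Whether a region was called at 120 h followed its height at 48 h. When the 19066 regions were divided into 10 classes of equal size by the geometric mean of their 48 h values, 56.3% of the lowest class (median value 42.0) were not called at 120 h, 31.8% of the third class (58.2), 9.81% of the sixth (87.7) and 0.157% of the highest (256). Regions without a peak in either 120 h library were 15.8% of the lowest class and 0 of 1907 in the highest. The lowest 3 classes held 70.4% of the regions not called at 120 h and 86.4% of those without any 120 h peak.

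Height was not the only property that differed. Within the lowest class, 26.1% of the 433 regions with a CpG island were not called at 120 h, and 65.1% of the 1474 without an island. In the fifth class the shares were 2.86% and 22.7%. Regions with an island had the lower share in all 10 classes, although the 2 highest classes held only 7 and 3 regions not called at 120 h. In the lowest class, regions within 1000 bp of a transcription start site (TSS) were not called at 120 h in 36.1% of 487. A CpG island is here one that the authors' program listed at or near the peak, and a TSS is the nearest gene start that the authors assigned.

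**Figure D3:**
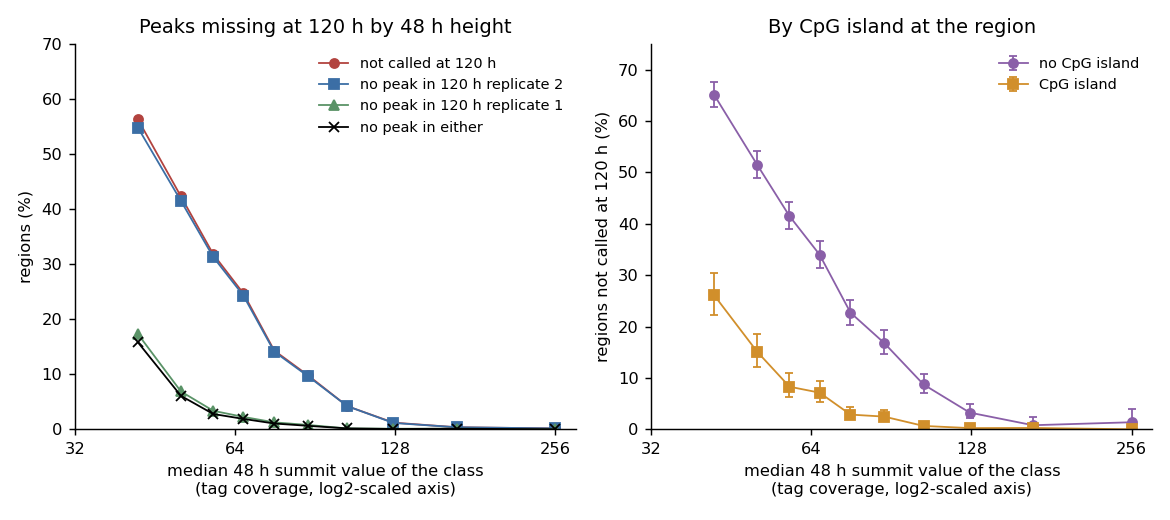
Both panels have the median 48 h summit value of 10 equal classes of the 19066 regions on a log2-scaled x axis. Left, the percentage of regions not called at 120 h, and without a peak in replicate 1, replicate 2 or both. Right, the percentage not called at 120 h with or without a CpG island, with 95% Wilson intervals. The line for replicate 2 runs almost along that for regions not called, and regions without an island lie above those with one, with 65.1% against 26.1% in the lowest class.

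The regions not called at 120 h were mostly distal. Only 441 of 3530 (12.5%) lay within 1000 bp of a TSS, against 57.1% of the regions called at all timepoints and 18.7% of all merged regions. A CpG island was listed for 339 (9.60%), against 58.6% and 17.9%. By GENCODE annotation of the summit, 1229 (34.8%) were intergenic, 1181 (33.5%) in introns and 987 (28.0%) within 3000 bp of a transcript start, whereas the regions called at all timepoints were 15.5% intergenic, 14.1% intronic and 68.5% near a transcript start. Another 89 lay in coding exons and 44 in other exons. No gene was assigned to 1189 (33.7%) of the regions, against 13.7%. All merged regions were 33.9% intergenic, 27.8% intronic and 34.0% near a transcript start, and 31.9% had no assigned gene. The intergenic and unassigned shares of the regions not called at 120 h were thus near those of all merged regions.

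Of the 544 regions without any 120 h peak 10.3% were at a TSS, 5.70% had a CpG island, 40.3% were intergenic and 38.2% had no assigned gene. The regions called at all timepoints but 48 h had 23.1% at a TSS and 26.3% with an island, and those called at all timepoints but 18 h had 41.4% and 51.8%. Regions missing from 1 timepoint were thus not alike in position, and the set missing at 120 h was the most distal of the 3.

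Their sequence also differed. In the 300 bases around the summit the median GC content was 50.7% in the regions not called at 120 h and 61.0% in those called at all timepoints, and the ratio of observed to expected CpG was 0.262 and 0.692. The GC content of all merged regions was 52.0%. Bases marked as repeats in the reference made up more than 50% of the window in 271 regions (7.68%), against 2.42% of the regions called at all timepoints and 8.76% of all merged regions. Among those without any 120 h peak 65 (11.9%) were of this kind. The regions were narrower than those called at all timepoints, with a median width of 567 bp against 819 bp, but wider than all merged regions (424 bp).

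By chromosome, the share of regions called at 0, 18 and 48 h that were not called at 120 h ran from 11.9% on the X (46 of 387) to 24.5% on chromosome 13 (220 of 898), apart from the Y with 0 of 8. The regions without any 120 h peak lay at a median of 15062 bp from the nearest 120 h peak of either library. Of these regions, 31 (5.70%) were closer than 1000 bp and 326 (59.9%) further than 10000 bp. They were selected for lacking a 120 h peak, and no background distance is given.

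The heights at 0, 18 and 48 h were tested, since the selection set no height at these times beyond the peak caller's cutoff. That cutoff was met by all regions tested. Regions not called at 120 h were those with lower 48 h values more often, so the contrasts with 48 h are not free of the selection. Fits with limma used the log2 summit values of the 6 libraries over all 19066 regions, with Benjamini-Hochberg adjustment at 0.05. At 18 h against 0 h, 3223 of the 3530 regions were lower (91.3%) and 4 higher,, and their median log2 change was -1.28. Over all regions tested 94.3% were lower and 0.304% higher, with a median of -1.24, so the fall was near the background and is not particular to these regions. At 48 h against 0 h, 3284 were lower and 4 higher with a median of -1.46, against 94.9% lower, 0.336% higher and a median of -1.37. At 48 h against 18 h, 4 were lower and 0 higher, with a median of -0.17, against 0.0524% lower, 0.0105% higher and a median of -0.13, and at an unadjusted limma p under 0.05, 296 of the 3530 were lower and 9 higher, beside 877 and 52 of all 19066 regions.

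The general fall of peak height between 0 and 18 h was removed when each library was centred on its median. On this scale 33 of the 3530 regions were lower and 94 higher at 18 h against 0 h,, and the median log2 change was 0.00, and the background was 0.409% lower and 1.99% higher. At 48 h against 0 h, 186 regions were lower (5.27%, background 2.32%) and 231 higher (6.54%, background 5.21%), and the median was -0.02. At 48 h against 18 h no region of the whole table passed the threshold after centring. Nearly all calls of lower height in these regions were thus lost when the common shift between libraries was removed. The regions without any 120 h peak had medians of -1.21 (18 h) and -1.40 (48 h) against 0 h, and those with a peak in 120 h replicate 1 had -1.30 and -1.48.

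Regions that fell most at 18 h lay at genes of several kinds. The Foxp1 region, chr6:99439662-99440339, in an intron of a gene for a forkhead factor, had 370 and 319 before RA, 36 and 65 at 18 h, then 55 and 49 by 48 h, and 60 in 120 h replicate 1. Its log2 change at 18 h was -2.83 ± 0.31 (SE), with adjusted p = 3.83e-15 in limma. All values at 18 and 48 h lay far below both 0 h values. The region was picked for its fall from 0 to 18 h, so this is no separate result. The Camsap2 region, chr1:136292093-136292908, in a gene for a microtubule minus-end protein, had 257 and 202 before RA against 30 and 43 at 18 h. The Lpar6 region, chr14:73231338-73232024, lies in an intron upstream of Lpar6, a lysophosphatidic acid receptor gene. It is also assigned to Rb1, a gene of the cell cycle list. Its values were 404 and 385 before RA, 55 and 76 at 18 h, then 40 and 33 by 48 h. The Gbp3 region, chr3:142554543-142555118, upstream of an interferon-induced guanylate-binding protein gene, had 254 and 210 before RA against 34 and 46 at 18 h. The log2 changes of these last 3 were -2.67, -2.61 and -2.55, and all 4 regions also passed the threshold after centring, where their changes ran from -1.54 to -1.26.

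Without centring, 4 regions passed the threshold as higher at 18 h than at 0 h. The LOC101055740 region, chr2:30779093-30779725, had 110 and 187 before RA, 267 and 264 at 18 h, then 226 and 266 by 48 h, and 124 in 120 h replicate 1, with a log2 change of 0.89 ± 0.31 (SE) and adjusted p = 0.00545 in limma. The 18 and 48 h values all lay above both 0 h values. This region was picked for its rise from 0 to 18 h, so the lack of overlap is no separate result. The region in Psmd1, a gene for a proteasome subunit, chr1:86126672-86127026, had 37 and 37 before RA against 50 and 66 at 18 h, with a change of 0.63 and adjusted p = 0.0456 in limma. An intergenic region of chromosome 18 had 47 and 46 before RA against 108 and 74 at 18 h, and another of chromosome 8, chr8:12128314-12129230, had 38 and 80 against 86 and 86. Without 0 h replicate 1 the log2 change was 0.51 for LOC101055740 and 0.10 for the chromosome 8 region, and neither passed the threshold. The chromosome 8 call was also lost without either 18 h library. With the mean signal of the peak the change was 0.39 for the chromosome 8 region and 0.47 for Psmd1, and neither passed. The Psmd1 call was lost without any 1 of 5 libraries (without 18 h replicate 2 the change was 0.43), and that of the chromosome 18 region without 18 h replicate 1 (0.67).

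Between 18 and 48 h, 4 regions passed the threshold and all 4 were lower. The Zdhhc14 region, chr17:5660322-5661038, in an intron of a palmitoyltransferase gene, had 394 and 404 before RA, 118 and 171 at 18 h, then 42 and 69 by 48 h, and 66 in 120 h replicate 1. Its log2 change was -1.40 ± 0.31 (SE), with adjusted p = 0.0221 in limma. An unassigned region, chr8:47582698-47583283, had 125 and 126 at 18 h and 36 and 53 at 48 h, with a change of -1.52 and adjusted p = 0.00772 in limma. Another unassigned region, chr5:99200543-99201035, had 135 and 169 against 43 and 85. A region upstream of Isoc1 on chromosome 18 had 95 and 116 against 36 and 50, and was the only one of the 4 without a peak in either 120 h library. In all 4 the values fell from 0 to 18 h and from 18 to 48 h, with no overlap between timepoints. After centring, the log2 changes from 0 to 18 h ran from -0.21 to 0.07, and none passed the threshold. The step from 18 to 48 h is the one these regions were chosen for, so its lack of overlap is no separate result. None of the 4 passed the threshold after centring (adjusted p between 0.129 and 0.315 in limma), and without 18 h replicate 2 or 48 h replicate 1 no region passed it.

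The regions were spread over many genes. Of the 15347 genes assigned to a region called at 0, 18 and 48 h, 2565 (16.7%) had a region not called at 120 h, and for 2267 of these it was a single region. Another region of the same gene was called at 120 h in 1900 genes (74.1%), and none in 665. Mtus2, a gene for a microtubule-associated protein, had most, with 6 of its 10 early regions not called at 120 h and 6 regions called there. Aff3, a transcriptional elongation factor gene, Col13a1, a collagen gene, and Dst, which encodes the cytoskeletal linker dystonin, had 5 each, and 10 further genes had 4 each. Among these 10, Ryr1, the gene of the skeletal muscle calcium release channel, had 3 of its 4 without a peak in either 120 h library. Among the 55 clustered histone genes with a region called at 0, 18 and 48 h, 15 shared 4 regions that were not called at 120 h.

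Genes of spermatogonia and of the pathways that act in them were taken from 17 lists of 355 genes, chosen with earlier results of these data known. Of the 289 with a region called at 0, 18 and 48 h, 46 (15.9%) had at least 1 region not called at 120 h, near the 16.7% of all genes, and 10 (3.46%) had one without any 120 h peak, beside 418 (2.72%) of all genes. They held 54 such regions, of which 8 lay within 1000 bp of the gene's start. The start itself was called at 120 h in 30 of the 46 genes, and 40 had at least 1 region called then.

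Markers of undifferentiated spermatogonia held a region not called at 120 h in 7 of 22 genes, progenitor markers in 2 of 10 and differentiating markers in 2 of 12. Gfra1, the GDNF co-receptor of stem cell renewal, had 3 regions called at 0, 18 and 48 h, and none of them was called at 120 h. Those described here lie in introns. The Gfra1 start was called at 120 h but not at all of 0, 18 and 48 h. Its region at chr19:58374614-58375059 had 93 and 132 before RA, 76 and 72 at 18 h, then 48 and 48 by 48 h, with no peak at 120 h. Its region at chr19:58268482-58268985 had 196 and 215, 91 and 90, and 45 and 59, and 75 in 120 h replicate 1. In both regions the values of the 3 timepoints did not overlap. Both were lower at 48 h than at 0 h (adjusted p = 0.000177 and 3.18e-09 in limma), but neither step from 18 to 48 h passed the threshold (0.999 and 0.781), nor did the step to 18 h in the first region (0.0663), and after centring none of these changes passed it.

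Cdh1, the gene of E-cadherin on undifferentiated spermatogonia, had a region at its start, chr8:106603149-106603926, with 123 and 190 before RA, 66 and 64 at 18 h, then 55 and 73 by 48 h, and 83 in 120 h replicate 1. A second Cdh1 region in an intron had 54 and 82 at 48 h and 63 in 120 h replicate 1. The intronic region of Pax7, a marker of a rare stem cell subset, had 366 and 253 before RA, then 63 and 51 by 48 h, and 114 in 120 h replicate 1. Its 120 h value was above both 48 h values. Of the differentiating markers, Ccnd2, a D-type cyclin induced by RA, had an intronic region, chr6:127144742-127145395, with 299 and 164 before RA, 80 and 91 at 18 h, then 59 and 61 by 48 h, and Dmrtb1, which controls the entry of spermatogonia into meiosis, had a distal one with 194 and 172, 67 and 64, and 42 and 49. Neither had a peak in either 120 h library.

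The progenitor markers were Upp1, a uridine phosphorylase gene, and Sdc4, a syndecan gene. The Upp1 region, 616 bp inside the gene, had 101 and 100 before RA, 40 and 40 at 18 h, then 46 and 46 by 48 h, and 37 in 120 h replicate 1. Of the undifferentiated markers, Bmi1, a Polycomb gene, and Sall4, a zinc finger factor, had 43 and 80, and 45 and 71 at 48 h, with 75 and 95 in 120 h replicate 1.

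Of the GDNF and FGF signalling genes 5 of 26 held a region not called at 120 h. Fgfr3 and Fgfr4, both FGF receptors, had theirs at the start, with 58 and 85 and with 66 and 64 at 48 h, and 89 and 98 in 120 h replicate 1. These were the only regions of the 2 genes called at 0, 18 and 48 h, and no region was called at 120 h. Sos1, an exchange factor that activates RAS, had 2 neighbouring regions at its start. The first, chr17:80479116-80479927, had 73 and 73 at 48 h and 89 in 120 h replicate 1, and the second, chr17:80480297-80480811, had 69 and 83 at 48 h and 58 in 120 h replicate 2. Each 120 h library thus had a peak at the Sos1 start, but not in the same region.

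Of the cell cycle genes 8 of 31 held such a region. Ccnd3, another D-type cyclin, had it 27 bp before the start, chr17:47504790-47505329, with 370 and 427 before RA, 79 and 136 at 18 h, then 64 and 93 by 48 h, and no peak in either 120 h library. Ccnd3 was the only list gene whose region at the start lacked a peak in both 120 h libraries, and 4 other regions of Ccnd3 were called at 120 h. The region upstream of Ccne1, the cyclin of entry into S phase, had 392 and 426 before RA, then 102 and 127 by 48 h, and 128 in 120 h replicate 1, and that of Cdk6 had 70 and 79 and then 63.

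Sequence before the Ccnd3 start and at the 2 Sos1 regions is shown as the gene-start cases with free summits outside UTRs, and Myh11 for comparison, in the same notation.

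Ccnd3, chr17:47504980-47505050: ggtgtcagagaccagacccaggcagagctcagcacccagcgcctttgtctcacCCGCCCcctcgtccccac
Sos1, chr17:80479572-80479692: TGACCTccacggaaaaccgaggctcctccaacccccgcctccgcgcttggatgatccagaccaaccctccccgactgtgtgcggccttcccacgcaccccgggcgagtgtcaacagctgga
Sos1, chr17:80480532-80480652: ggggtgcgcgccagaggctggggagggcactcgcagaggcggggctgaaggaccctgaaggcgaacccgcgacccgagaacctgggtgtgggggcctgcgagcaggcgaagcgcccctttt
Myh11, chr16:14291380-14291500: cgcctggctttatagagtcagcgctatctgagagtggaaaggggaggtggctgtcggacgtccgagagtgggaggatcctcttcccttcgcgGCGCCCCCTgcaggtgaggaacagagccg

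The Ccnd3 window held the SP/KLF letters on the other strand 1 time, the first Sos1 window the nuclear receptor half-site AGGTCA on the other strand, and the Myh11 window the CTCF core letters AGGGGGCGC on the other strand. The second Sos1 window held none of the 20 motifs.

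Of the other pathway lists, Wnt and hedgehog signalling held a region not called at 120 h in 4 of 27 genes, PI3K and mTOR signalling in 4 of 21, TGF beta and BMP signalling in 2 of 25, and the RA pathway in 2 of 14. Tcf7l2, a nuclear effector of Wnt signalling, had 3 of its 6 early regions among them, with 68 and 87, 57 and 53, and 62 and 52 at 48 h, all with a peak in 120 h replicate 1. Tsc1, an inhibitor of mTOR, had a region with 55 and 67 at 48 h and no 120 h peak. In the RA pathway these were Rarb, an RA receptor that RA itself induces, and Crabp1, an RA-binding protein. Rarb had 55 and 49 at 48 h and 58 in 120 h replicate 1. Crabp1 had 56 and 60 at 48 h and 46 in 120 h replicate 2, with a peak of 120 h replicate 1 lying 432 bp away.

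Such a region was found in 2 of 12 DNA methylation genes (16.7%, as over all genes), 3 of 34 histone modification genes, 2 of 32 meiotic prophase genes, 2 of 18 germ cell identity genes and 1 of 10 pluripotency genes. Tet3, an enzyme that oxidizes methylcytosine, had an intronic region with 373 and 286 before RA, then 86 and 141 by 48 h, and 118 in 120 h replicate 1, while the region of Tet1, of the same family, had 145 and 109, then 43 and 48, and no 120 h peak. Kdm2b, a demethylase that binds CpG islands, had 466 and 351 before RA, then 103 and 101 by 48 h, and 110 in 120 h replicate 1. Brca2, a recombination gene, had 1 region with 42 and 50 at 48 h and no 120 h peak, and Atm, the kinase of double-strand breaks, had 61 and 90 at 48 h and 47 in 120 h replicate 1.

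Markers of other testis cells were few but present. Of the germ cell markers Ddx4, Dazl, Piwil2, Piwil4, Tdrd1 and Mael, 4 of 6 had a region at their start called at 0, 18 and 48 h and also at 120 h. Of 5 Sertoli markers the start was called early in 1 (Wt1) and at 120 h in 2 (Sox9 and Wt1), of 5 Leydig and peritubular markers in 2 (Acta2 and Myh11) and 1 (Acta2), and of 4 endothelial and immune markers in 0 at both. Of the genes with a region called at 0, 18 and 48 h, 1 of 3 Sertoli genes, 2 of 3 Leydig and peritubular genes and 1 of 4 endothelial and immune genes held a region not called at 120 h. The region at the start of Myh11, the smooth muscle myosin gene, chr16:14291237-14291706, had 257 and 310 before RA, 103 and 95 at 18 h, then 76 and 104 by 48 h, and 93 in 120 h replicate 1, and the region of Pdgfra, a receptor of peritubular and Leydig lineages, had 56 and 77 at 48 h and 77 in 120 h replicate 1. The part of other cell types in the regions not called at 120 h was not tested.

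Sequence motifs were counted in the 300 bases around the summit, on both strands. The DMRT letters TACANTGT occurred in 18.5% of the regions not called at 120 h, in 9.25% of the regions called at all timepoints and in 10.2% of all merged regions. Away from starts and islands the shares were 21.8%, 24.5% and 12.9%. Within the set, DMRT letters were found in 20.2% of the regions with a peak in 120 h replicate 1 and in 60 of the 544 without any 120 h peak, and away from starts and islands in 23.7% and 12.8%. Regions with and without the letters had similar heights, with medians of 49 and 65 against 47 and 60 at 48 h.

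The letters lay close to the summits. In the regions not called at 120 h and away from starts and islands, 43.7% of DMRT matches lay within 30 bp of the summit, and in the regions called at all timepoints 42.7%. For CCAAT these shares were 29.2% and 29.0%. The profile of matches by distance was thus alike in both sets of regions. A match is a description of the sequence only, and binding of the factor was not measured.

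**Figure D4:**
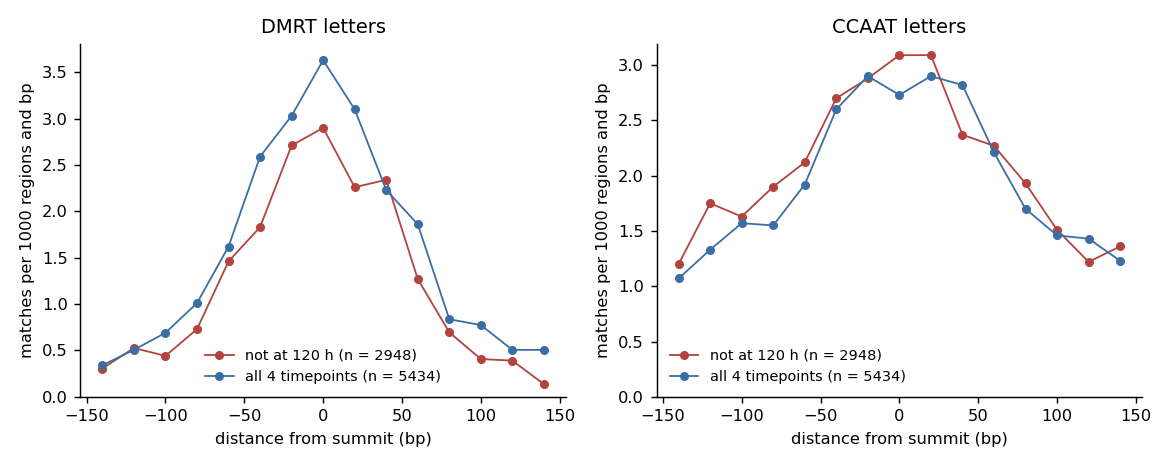
Matches to the DMRT letters (left) and to CCAAT (right) per 1000 regions and bp against the distance from the summit, in bins of 20 bp, for regions away from starts and islands that were not called at 120 h (red) or were called at all 4 timepoints (blue). Both strands and overlapping matches were counted. At the summit the DMRT rate was 2.90 and 3.63 in the 2 sets.

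Regions with DMRT letters within 20 bp of the summit numbered 232 away from starts and islands. The 5 highest of them at 48 h, chosen after their values were seen, are shown because they carry the letters at the point of highest signal. Capitals mark any motif found.

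No assigned gene, chr11:3100446-3100546: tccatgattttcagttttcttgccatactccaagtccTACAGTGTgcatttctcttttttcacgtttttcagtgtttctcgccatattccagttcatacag
Pvrl1 intron, chr9:43784574-43784674: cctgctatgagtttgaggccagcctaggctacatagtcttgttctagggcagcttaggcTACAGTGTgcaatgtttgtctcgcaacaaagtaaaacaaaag
No assigned gene, chr13:56213054-56213154: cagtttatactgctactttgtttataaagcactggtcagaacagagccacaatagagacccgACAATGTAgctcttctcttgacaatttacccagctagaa
5430421F17Rik, chr8:25309822-25309922: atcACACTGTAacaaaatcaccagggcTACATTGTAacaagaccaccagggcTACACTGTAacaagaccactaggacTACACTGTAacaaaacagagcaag
Gltp intron, chr5:114683902-114684002: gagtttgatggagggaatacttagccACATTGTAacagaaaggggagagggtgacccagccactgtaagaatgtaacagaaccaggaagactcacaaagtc

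The window near 5430421F17Rik held 4 stretches of DMRT letters in repeated units, and the others 1 each. The chromosome 11 region had 196 and 138 before RA, then 158 and 128 by 48 h, and 109 in 120 h replicate 1, and 77.7% of its 300 bases are marked as repeats. The region in Pvrl1, a gene for the adhesion protein nectin, had 291 and 195 before RA, then 101 and 112 by 48 h, and 242 in 120 h replicate 1. The Gltp region, in a glycolipid transfer protein gene, had 185 and 166 before RA, then 94 and 86 by 48 h, and 133 in 120 h replicate 1. All 5 regions still had a peak in 120 h replicate 1 and none had one in 120 h replicate 2.

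Other motifs were compared with the regions called at all timepoints and with all merged regions. SP/KLF letters GGGCGG were found in 706 of 3530 regions against 53.7% (23.5% of all merged regions). The ETS letters CCGGAAG were found in 5.10% against 14.3% (5.86%). The CRE letters TGACGTCA were found in 0.737% against 2.88% (1.02%), and the YY1 letters AAGATGGC in 53 of 3530 against 4.31% (2.78%). Away from starts and islands SP/KLF letters were found in 14.0% against 17.3% and ETS letters in 4.88% against 4.38%, so the difference was smaller for the first and turned for the second. CRE letters were found there in 0.475% against 0.607% and YY1 letters in 1.66% against 2.76%. More frequent were the GATA letters AGATAA, in 11.7% against 5.30%, the AP-1 letters TGANTCA, in 9.63% against 5.08%, and the nuclear receptor half-site AGGTCA, in 17.3% against 12.1%. Over all merged regions these last 3 were found in 9.86%, 7.90% and 15.7%. In the regions without any 120 h peak they were found in 8.82%, 8.46% and 19.7%. In those with a peak in 120 h replicate 1 the shares were 12.4%, 9.98% and 16.9%. The GATA letters were thus not more frequent than over all merged regions where both 120 h libraries lacked a peak. Away from starts and islands the GATA letters were found in 13.0% against 9.90% (11.6% of all merged regions there). The differences were smaller there for the AP-1 letters, with 10.5% against 8.65% (9.1%), and the half-site, with 18.7% against 16.3% (17.1%). CCAAT was found in 38.7% of both sets and in 43.4% of the regions without any 120 h peak, against 33.5% of all merged regions. Away from starts and islands it was found in 39.7% against 36.6% (33.8% of all merged regions there). Of the regions there without any 120 h peak, 44.6% held it.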

How the data were processed

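ATAC-seq peaks were read from the deposited table. The authors aligned reads to mm10 with BWA 0.7.12, removed duplicates, extended the alignments into 32-nt bins, reduced all libraries to equal tags and called peaks per library with MACS2 2.1.0 (versions from the submitters' processing notes). The deposited values are signal, the tag coverage at the summit and the mean over the peak, so reads per region and their counting error are unknown.

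Overlap of 1 bp or more joined peaks into a region, and a timepoint was counted where both libraries had a peak. Log2 summit values of the 6 libraries of 0, 18 and 48 h were fitted with limma 3.58.1 in R 4.3.3 (no scaling, no pseudocount, no block). In the fit without centring limma pooled the spread over all regions, so every region has the same SE. After centring the SE differed between regions, so a call there depends on the region's spread as well as on its change. Merging and fit were tested on simulated data. Distances, genes and CpG islands are the authors' own, with TSS limits of 1000 bp, and features come from GENCODE vM21 basic, where a promoter reaches 3000 bp from a transcript start. Of 355 list genes 348 were found in the table, older symbols included. Python 3.11.15, pandas 2.3.3, numpy 2.4.6 and scipy 1.17.1 were used.

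The regions, gene lists and motifs were chosen with earlier results of these data known. Regions were named by a rule: the 6 highest at 48 h without any 120 h peak, the 4 largest changes in each direction past the threshold, list genes with a region at the start and up to 3 per list further away, the 3 regions on each side of the 120 h border and the 5 genes with most regions, where ties were kept.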

Additional observations from a re-analysis of the deposited data

How the results depend on the processing

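Leaving out 1 library at a time gave 613 to 5549 regions of the rule and 544 to 1337 without any 120 h peak. Without 120 h replicate 2 only 613 were left, and without 48 h replicate 1 there were 5549 and 1337, and the cause was not tested. With summit values of at least 50 the numbers were 2162 and 237, with equal numbers of the highest peaks per library 2164 and 774, and where a peak in either library counted 3216 regions had no 120 h peak. The other settings moved neither by over 1.5 times. At a TSS were 10.3% of the regions without any 120 h peak, 14.6% with equal numbers of peaks and 17.8% within 3000 bp, and 5.70% and 11.6% had a CpG island under the first and second setting.

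With median centring, quantile normalization and the replicate block with centring, 33, 23 and 54 regions were lower and 94, 18 and 160 higher at 18 h against 0 h, and 186, 212 and 228 lower and 231, 73 and 283 higher at 48 h against 0 h. At 48 h against 18 h none was lower under these 3 settings, 8 with the replicate block and 1 with an intensity trend. With the mean signal, 2 regions were higher at 18 h. With single libraries left out, 2828 to 3206 regions were lower and 2 to 4 higher at 18 h against 0 h (2 without 18 h replicate 1), 2937 to 3291 lower and 0 to 5 higher at 48 h against 0 h (1 without 0 h replicate 1 and 0 without 48 h replicate 2), and 0 to 7 lower and 0 to 0 higher at 48 h against 18 h (1 without 18 h replicate 1, 0 without 18 h replicate 2 or 48 h replicate 1, and 7 without 48 h replicate 2). Under the replicate block alone 3320 and 3357 regions were lower at 18 and 48 h against 0 h. Whether same-numbered libraries share more than a replicate number is not known. Their deviations correlated at 0.185, 0.0893 and -0.123, which cannot decide it with 2 libraries per timepoint. None of the 12 regions named for a change reversed under any setting run. The 4 falls at 18 h passed the threshold under each, the 4 rises missed it in 4 cases and in 10 more with a library left out, and the 4 falls at 48 h against 18 h in 17 and 12.

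The lowest summit value among called peaks was 24 or 25, and the signal of a region without a peak is unknown beyond not having been called. With 2 libraries a timepoint, a single library decides a call.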
